A study of Mus musculus with 7 samples.

Results

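The collagen genes encode the alpha chains that wind in groups into the triple helices of the extracellular matrix. They were chosen by name, as the genes whose mouse symbol has the form Col, number, a, number (such as Col1a1), and were kept where at least 3 of the 7 libraries had at least 10 counts. The count table held 44 such genes, and 36 passed. The 36 were 8 fibrillar, 6 basement membrane, 4 microfibrillar and 7 FACIT collagens (fibril-associated collagens with interrupted triple helices), and 11 other collagens. Among these 11 are collagens that form networks, anchor epithelia, span membranes or belong to the multiplexins. The 8 genes that did not pass were Col2a1, Col11a1 and Col24a1 among the fibrillar, Col6a4 and Col6a5 among the microfibrillar, Col9a1 and Col19a1 among the FACIT, and Col10a1 among the other collagens. None of these 8 had more than 12 counts in any library. Just outside the limit, Col19a1 and Col24a1 had 2 libraries with at least 10 counts each. Just inside it, Col17a1 had 4, with counts from 2 to 19.

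RNA from the left ventricle of 3 WT mice (replicates 1, 3 and 4) and 4 mice homozygous for the titin A178D missense variant (A178D, replicates 1 to 4) was sequenced as poly(A) libraries, with 1 library for each sample. The labels give the strain as C57BL/6J for both groups, with no treatment, and neither age nor sex. The comparison asks which transcripts differ in hearts that carry the variant on both alleles. Library totals ran from 33080675 counts in A178D replicate 4 to 54245530 in WT replicate 3. The variant was made by CRISPR-Cas9 in cloned C57BL/6N embryonic stem cells, together with a silent change that adds a restriction site. The line was crossed for generations to C57BL/6J before WT and A178D littermates were compared. The A178D mice thus stand for a line from edited cell clones. The Y-linked genes Ddx3y, Uty, Kdm5d and Eif2s3y, together, summed to 223, 225 and 264 counts per 1000000 library counts (CPM) in the WT hearts and 245, 243, 222 and 167 CPM in the A178D hearts, so none of the 7 hearts stood out as female.

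Fibrillar collagens make the tensile fibres between the myocytes, with types I and III as the bulk of the cardiac interstitium, and are made there mainly by fibroblasts. Type IV collagens form the sheet-like network of basement membranes around myocytes, endothelial cells and mural cells, type VI collagens form beaded microfilaments that link the basement membrane to the interstitium, and FACIT collagens coat the surface of fibrils. In heart muscle this scaffold transmits force and sets passive stiffness, and its genes are known to respond to mechanical load and injury.

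Titin itself (Ttn, ENSMUSG00000051747) was measured at 7245, 6247 and 6486 CPM in WT replicates 1, 3 and 4 and at 5361, 6173, 6489.5 and 4087 CPM in A178D replicates 1 to 4. The groups overlapped, and the log2 fold change was -0.27 (SE 0.12, edgeR's quasi-likelihood test, adjusted p = 0.287), or -0.15 without A178D replicate 4 and -0.14 with offsets for gene length and GC content. It was -0.35 without A178D replicate 3, and also -0.35 with a block for the replicate number. Counts per gene do not read the changed base, so they do not check the genotype. All CPM values are scaled by edgeR's TMM factors, and every fold change is A178D minus WT on the log2 scale.

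WT replicate 4 stood apart from the other WT hearts in the collagens. It had the lowest value of the 7 hearts for 19 of the 36 collagen genes (52.8%), against 15.5% of the 13894 genes tested. The summed level of the 36 genes was 2315, 2059 and 1558 CPM in WT replicates 1, 3 and 4, and 2592, 2648, 2552 and 2431 CPM in A178D replicates 1 to 4. Every A178D heart was thus above every WT heart in the sum. The WT group had a wider spread (SD 385 CPM, n = 3) than the A178D group (SD 92.2 CPM, n = 4). The sum was not corrected for gene length and rests largely on a few genes. Col4a1 and Col4a2 made up on average 24.7% and 21.4% of it in WT and 25.6% and 21.5% in A178D. The separation in the sum is therefore not a result for all 36 genes, of which 13 had fold changes below 0. The library total of WT replicate 4, 41102868 counts, was close to that of A178D replicate 1, at 40623300.

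Across the collagen family, a single gene, Col3a1, passed the test across all genes. By the quasi-likelihood test of edgeR, with p-values adjusted over 13894 genes after Benjamini and Hochberg and a threshold of 0.05, 1 of the 36 collagens (2.78%) was called higher, against 1.04% of all genes tested (145 genes). None of the 36 was called lower, against 1.31% of all genes (182 genes). At an unadjusted p under 0.05, 3 collagens were lower, and DESeq2 and limma-voom called none lower either. At that unadjusted threshold 15 of the 36 were higher, against 7.93% of all genes, and the 3 lower compare with 8.81%. The 4 A178D hearts lay above the 3 WT hearts without overlap in 10 collagens, against 7.61% of all genes, and below them in 2, against 8.52%. In these counts and those at the unadjusted threshold, Col26a1 (higher) and Col17a1 (lower) passed the filter only with the group where each is high. Neither gene adds support for a difference. Fold changes were above 0 for 23 of the 36 (63.9%) and 50.5% of all genes, and the median was 0.17 for the collagens and 0.00 for all genes. The collagen median rested in part on single WT hearts, with 0.08 without WT replicate 4 and 0.31 without WT replicate 1.

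The number of called collagens depended on the method. DESeq2's Wald test called 7 higher, against 2.2% of all genes: Col1a1, Col3a1, Col5a2, Col4a1, Col4a2, Col6a2 and Col13a1. With offsets in edgeR that take out, library by library, trends of the counts with gene length and GC share, 11 were called higher, against 1.48% of all genes: Col1a1, Col1a2, Col3a1, Col5a1, Col5a2, Col4a1, Col4a2, Col6a1, Col6a2, Col6a3 and Col8a1. These offsets used the length and GC content of the longest transcript. The collagens are long and GC-rich by these, with medians of 5989 bases and 56.3%, against 3438 bases and 49.9% for all genes tested. By all exons, the median lengths were 7242 and 4477 bases. The part of these properties in the results was not tested apart from that fit. Col3a1 was in the calls of the 10 alternatives that kept all 7 hearts, but in only 3 of the 7 fits that left out a heart. The number of collagens called higher was 9 without WT replicate 1 (of 215 genes in all), 3 without A178D replicate 4 (of 154) and 1 without WT replicate 4 (of 40). It was 0 without WT replicate 3 (of 22) and without A178D replicate 1, 2 or 3 (of 40, 101 and 78).

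**Figure D1:**
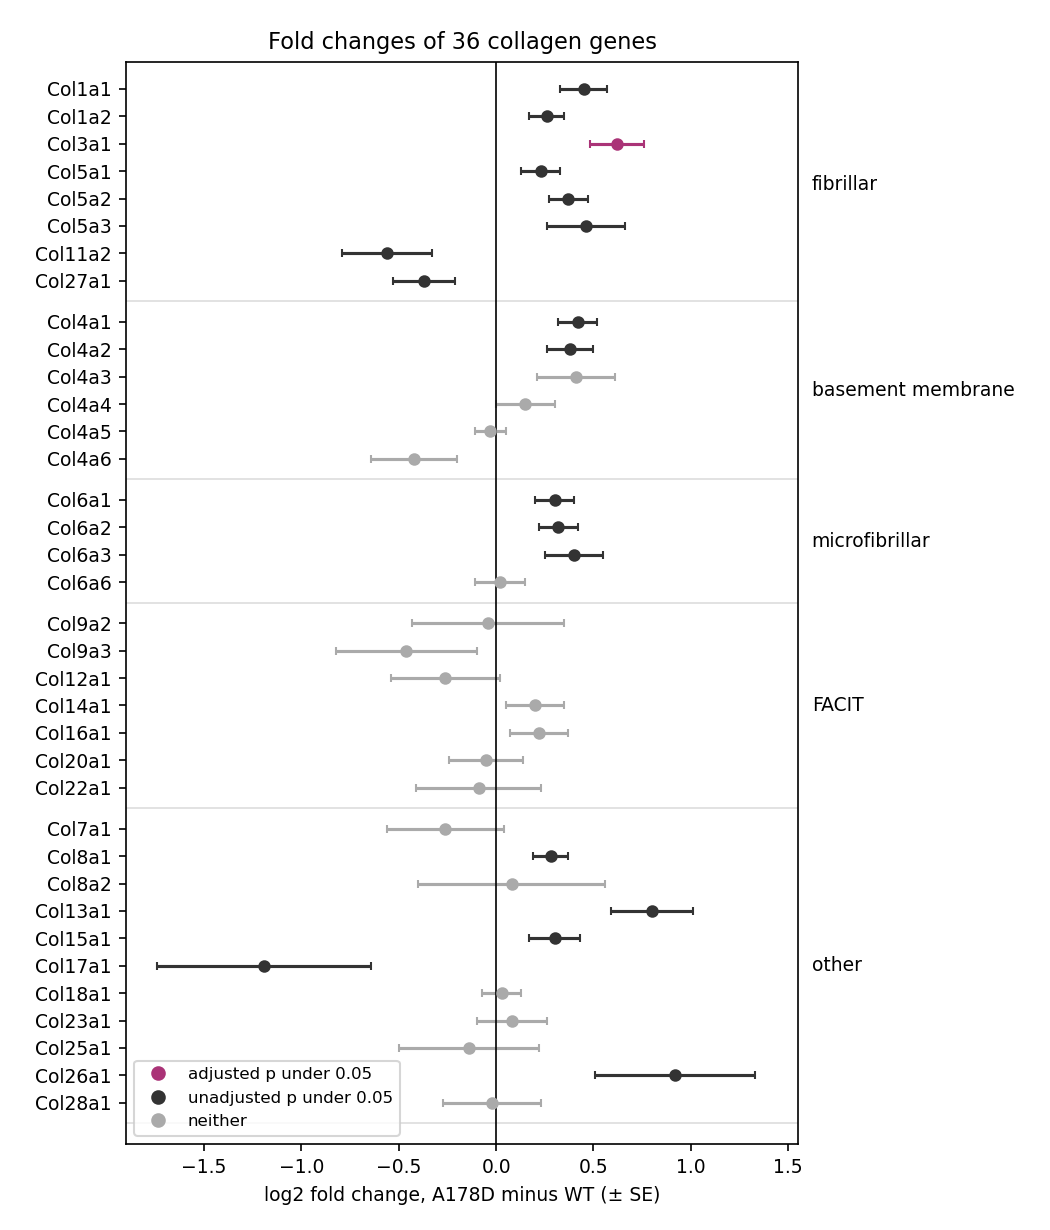
Log2 fold change (A178D minus WT, x axis) of each of the 36 collagen genes, grouped by class, with bars of 1 SE from edgeR's fit over 3 WT and 4 A178D hearts. Col3a1 is the gene with an adjusted p under 0.05; 17 others have an unadjusted p under 0.05, of which 14 lie to the right of 0 and 3 to the left.

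Among the fibrillar collagens, Col3a1 encodes the single chain of type III collagen, which forms thin, extensible fibrils alongside type I. Col3a1 (ENSMUSG00000026043, chr1:45311538-45349706, GRCm38) had 248, 213 and 141 CPM in WT replicates 1, 3 and 4 and 303, 324, 305 and 306 CPM in A178D replicates 1 to 4. The A178D hearts lay close together and all above the WT hearts, of which replicate 4 was the lowest. The mean was 201 ± 55 CPM in WT (SD, n = 3) and 309 ± 9.62 CPM in A178D (SD, n = 4), a log2 fold change of 0.62 (SE 0.14) or 1.54-fold (adjusted p = 0.0317 by edgeR). Without WT replicate 4 it was 0.42, still past the threshold (adjusted p = 0.0467). Over the 7 fits that left out 1 heart the log2 fold change ran from 0.42 to 0.81 and the adjusted p from 0.00318 to 0.113; Col3a1 missed the threshold without WT replicate 3 and without A178D replicate 1, 2 or 3.

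Type I collagen, the main fibre-forming collagen of the heart, is built from chains encoded by Col1a1 and Col1a2. Col1a1 (ENSMUSG00000001506, chr11:94936224-94953042) had 96.8, 89.4 and 60.7 CPM in the WT hearts and 113, 117, 103 and 117 CPM in the A178D hearts. Its groups did not overlap, with a log2 fold change of 0.45 (SE 0.12, edgeR adjusted p = 0.0813, and 0.0131 by DESeq2, within a range of 0.0131 to 0.0818 over the 10 alternatives that kept every heart). Col1a2 (ENSMUSG00000029661, chr6:4504814-4541544) had 129.8, 129.8 and 96.9 CPM in WT and 141, 147, 136 and 147 CPM in A178D. These values were again separate between the groups, but the difference was smaller, at 0.26 (SE 0.09, edgeR adjusted p = 0.178). Without WT replicate 4 the log2 fold changes were 0.27 for Col1a1 and 0.14 for Col1a2.

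Type V collagen is found inside type I fibrils, where it helps to set their diameter; Col5a1 and Col5a2 encode its common chains and Col5a3 a chain of narrower expression. Col5a2 (ENSMUSG00000026042) had 41.3, 36.7 and 30.6 CPM in WT and 50.1, 46.4, 43.7 and 46.8 CPM in A178D, without overlap. Its log2 fold change was 0.37 (SE 0.10, edgeR adjusted p = 0.0697) and 0.26 without WT replicate 4. Col5a1 had 64.2, 58.9 and 48.4 CPM in WT and 68.1, 75.3, 61.7 and 63.7 CPM in A178D, so 2 A178D hearts lay below WT replicate 1. The log2 fold change of Col5a1 was 0.23 (SE 0.10, edgeR adjusted p = 0.26), and 0.13 without WT replicate 4. Col5a3 varied more between hearts, with 28.9, 19 and 13.1 CPM in WT and 26.7, 35.1, 24.8 and 25.8 CPM in A178D, and its log2 fold change of 0.46 (SE 0.20, edgeR adjusted p = 0.263) came with overlapping groups. That value turned on single WT hearts, at 0.23 without WT replicate 4 and 0.81 without WT replicate 1, where edgeR called Col5a3 (adjusted p = 0.0142).

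The remaining fibrillar members lay on the other side of 0 and were of low level. Col11a2, a chain of the type XI collagen of cartilage fibrils, had 2.07, 3.36 and 2.26 CPM in WT and 1.88, 1.46, 1.78 and 1.85 CPM in A178D. All A178D values were below all WT values, with a log2 fold change of -0.56 (SE 0.23, edgeR adjusted p = 0.229), but WT replicate 3 carried much of this, and without it the value was -0.32. Col27a1, which encodes a fibrillar collagen known from cartilage, had 7.53, 10.3 and 9.84 CPM in WT and 7.16, 8.5, 7.54 and 5.22 CPM in A178D. The groups overlapped, and the log2 fold change was -0.37 (SE 0.16, edgeR adjusted p = 0.27). In all, 6 of the 8 fibrillar collagens had fold changes above 0, with a class median of 0.32, and 0.19 without WT replicate 4.

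Col4a1 and Col4a2 encode the chains of the common type IV collagen found in nearly all basement membranes. Col4a1 (ENSMUSG00000031502, chr8:11198423-11312826) had 572, 507 and 388 CPM in WT and 666, 668, 668 and 612 CPM in A178D. All A178D hearts were above all WT hearts, and WT replicate 4 was again the lowest. The log2 fold change was 0.42 (SE 0.10, 1.34-fold), just short of the threshold (edgeR adjusted p = 0.0555, range over the 10 alternatives with every heart 0.00336 to 0.056), and 0.28 without WT replicate 4 (adjusted p = 0.15). Col4a2 (ENSMUSG00000031503, chr8:11312805-11449287) had 510.4, 439.7 and 323 CPM in WT and 565, 552, 573 and 512 CPM in A178D. Here A178D replicate 4 exceeded WT replicate 1 by a small margin, and the log2 fold change was 0.38 (SE 0.12, edgeR adjusted p = 0.121) or 0.21 without WT replicate 4.

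The other type IV chains were of lower level, and their groups overlapped. Col4a3, Col4a4 and Col4a5 encode the chains of the basement membrane of the kidney glomerulus and some other sites, and Col4a5 with Col4a6 those of smooth muscle and some epithelia. Col4a5 was at 61.8 ± 1.34 CPM in WT (SD, n = 3) and 60.5 ± 5.3 CPM in A178D (SD, n = 4), a log2 fold change of -0.03 (SE 0.08). Col4a3 had a log2 fold change of 0.41 (SE 0.20, edgeR adjusted p = 0.328) from 6.06 ± 1.58 CPM in WT, with A178D replicate 4 at 5.25 CPM and the other A178D hearts from 8.87 to 9.07 CPM, and it ran from 0.27 without WT replicate 3 to 0.65 without WT replicate 1. Col4a4 was at 0.15 (SE 0.15) from 11.8 ± 2.56 CPM. Col4a6 was at -0.42 (SE 0.22, edgeR adjusted p = 0.352) from 2.88 ± 0.324 CPM; another entry without a name had the same counts as Col4a6 in every library, so its reads are uncertain. The class median over the 6 genes was 0.26, with 0.10 without WT replicate 4 and 0.42 without WT replicate 1.

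Col6a1, Col6a2 and Col6a3 encode the chains of the type VI heterotrimer, and Col6a6 a chain that can take the place of the Col6a3 product. Col6a1 (ENSMUSG00000001119) had 80.6, 76.4 and 59 CPM in WT and 88.8, 95, 87 and 85.1 CPM in A178D, a log2 fold change of 0.30 (SE 0.10, edgeR adjusted p = 0.126). Col6a2 (ENSMUSG00000020241) had 112, 105 and 80.1 CPM in WT and 123, 124, 121 and 129 CPM in A178D, a log2 fold change of 0.32 (SE 0.10, edgeR adjusted p = 0.11). In both genes the groups did not overlap and the 4 A178D hearts lay within a narrow range. Col6a3 had 68.2, 45.7 and 37.2 CPM in WT and 65.6, 72.2, 67.1 and 60.8 CPM in A178D; WT replicate 1 reached the A178D range, and the log2 fold change was 0.40 (SE 0.15, edgeR adjusted p = 0.204). Without WT replicate 1 it was 0.68 and called (edgeR adjusted p = 0.00237), and without WT replicate 4 it was 0.22, with Col6a1 at 0.18 and Col6a2 at 0.19 in that fit. Col6a6 was at 12.4 ± 0.963 CPM in WT and 12.5 ± 2.2 CPM in A178D, a log2 fold change of 0.02 (SE 0.13). The class median over the 4 genes was 0.31, and 0.19 without WT replicate 4.

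The FACIT collagens were lower in level and showed no gene with an unadjusted p under 0.05. Col14a1 and Col16a1, which attach to fibrils of the interstitium, had the highest levels of the class. Col14a1, first per length in this class, had 20.1, 17.4 and 11.5 CPM in WT and 20.2, 18.9, 18.2 and 18.1 CPM in A178D. Its groups overlapped, with a log2 fold change of 0.20 (SE 0.15, edgeR adjusted p = 0.529), 0.01 without WT replicate 4 and 0.38 without WT replicate 1. Col16a1 was at 0.22 (SE 0.15) from 12.8 ± 3.04 CPM in WT, at 0.05 without WT replicate 4 and at 0.37 without WT replicate 3. Col12a1, the tendon and ligament partner of Col14a1, was at -0.26 (SE 0.28) from 1.59 ± 0.324 CPM, with -0.40 to -0.10 when 1 heart was left out. Col9a2 and Col9a3, chains of cartilage type IX collagen, were at -0.04 (SE 0.39) and -0.46 (SE 0.36), each from under 1 CPM on average in both groups. The value of Col9a3 rested on WT replicate 3 (1.41 CPM, against 0.609 and 0.788 in the other WT hearts) and was -0.02 without it. Col20a1 was at -0.05 (SE 0.19) from 3.54 ± 0.186 CPM, and Col22a1, known from muscle-tendon junctions, at -0.09 (SE 0.32) from 2.01 ± 0.888 CPM. The class median was -0.05, with 2 of 7 fold changes above 0, and its sign was not stable, with a range of -0.17 to 0.17 when 1 heart was left out.

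Of the other collagens, Col13a1 encodes a membrane-spanning collagen known from cell adhesions and the neuromuscular junction. Col13a1 (ENSMUSG00000058806) had 1.9, 1.71 and 2.07 CPM in WT and 3.37, 2.71, 2.9 and 4.26 CPM in A178D, which rests on 84 to 143 counts per heart. The groups did not overlap, and WT replicate 4 was here the highest of the WT hearts. The log2 fold change of 0.80 (SE 0.21, 1.74-fold) missed the threshold by edgeR (adjusted p = 0.0632) and passed it by DESeq2 (adjusted p = 0.0114; range over the 10 alternatives with every heart 0.0114 to 0.0861). It was 0.87 without WT replicate 4.

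Col15a1 and Col18a1 are the multiplexins, which sit at basement membranes and carry the endostatin-like fragments at their ends. Col15a1, highest per length among these 11 genes, had 142, 123 and 90.3 CPM in WT and 152, 164, 144 and 123 CPM in A178D. The groups overlapped, and the log2 fold change was 0.30 (SE 0.13, edgeR adjusted p = 0.265), with 0.14 without WT replicate 4 and 0.45 without WT replicate 1. Col18a1 was at 0.03 (SE 0.10) from 19.5 ± 2.47 CPM in WT. Col8a1 and Col8a2 encode the network-forming type VIII chains of vessel walls and other tissues. Col8a1 had 36.9, 33 and 32.1 CPM in WT and 46.1, 42.5, 40.4 and 36.3 CPM in A178D, with A178D replicate 4 below WT replicate 1 and a log2 fold change of 0.28 (SE 0.09, edgeR adjusted p = 0.135), or 0.24 without WT replicate 4. Col8a2, at 0.602 ± 0.219 CPM in WT, had a log2 fold change of 0.08 (SE 0.48).

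Of the last members, Col26a1 and Col17a1 have values that rest on few counts. Col26a1 had 22, 18 and 8 counts in WT and 26, 26, 28 and 21 counts in A178D, and after scaling its groups did not overlap. Its log2 fold change was 0.92 (SE 0.41, edgeR adjusted p = 0.278). Col17a1, a membrane-spanning collagen that anchors epithelial cells, had 19, 18 and 12 counts in WT and 5, 10, 2 and 7 counts in A178D, with a log2 fold change of -1.19 (SE 0.55, edgeR adjusted p = 0.293). Its groups did not overlap either. Both genes passed the filter on counts only with the group where each is high, so no difference is read from them. Col7a1, which forms the anchoring fibrils of skin, was at -0.26 (SE 0.30; -0.39 to -0.11 with 1 heart left out), Col23a1 and Col25a1, both membrane-spanning, at 0.08 (SE 0.18) and -0.14 (SE 0.36, Col25a1 from -0.38 to -0.00 with 1 heart left out), and Col28a1, known from the sheath of peripheral nerves, at -0.02 (SE 0.25). The median over the 11 genes was 0.08, and 0.01 to 0.14 with 1 heart left out.

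**Figure D2:**
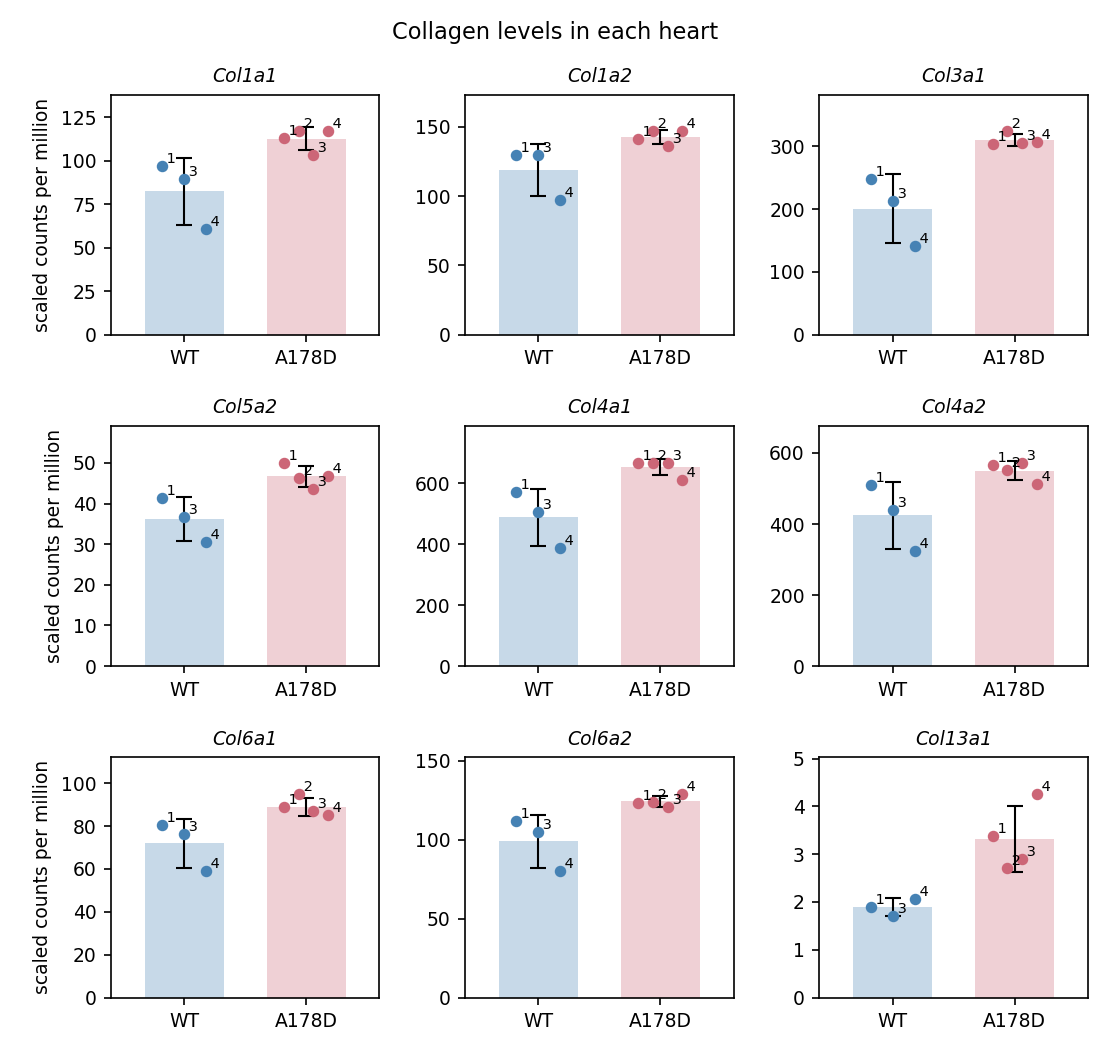
Scaled CPM (y axis, from 0) of 9 collagen genes in each of the 3 WT and 4 A178D hearts; bars show the group mean, error lines 1 SD and small digits the replicate number. The 9 genes are those of the 10 collagens with all A178D hearts above all WT hearts, without Col26a1, which rests on few counts. The separation in each panel thus follows from the choice of genes. Most of the 36 collagens overlapped between the groups, and 2 lay lower without overlap. WT replicate 4 is the lowest heart in each gene shown but Col13a1.

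Levels between collagens were compared per length, as CPM per kilobase of exon. Col4a1 and Col4a2 were the highest, at 65.5 ± 12.5 and 64.1 ± 14.3 CPM per kilobase in WT and 87.5 ± 3.67 and 83.2 ± 4.1 in A178D. Together they made up 48.8 ± 0.739% of the family's level per length in WT (SD, n = 3) and 50.0 ± 1.23% in A178D (SD, n = 4). Next came Col3a1 at 20.5 ± 5.61 CPM per kilobase in WT and 31.5 ± 0.98 in A178D, then Col15a1 at 18.6 ± 4.11 and 22.9 ± 2.74, and Col6a1 at 16.4 ± 2.62 and 20.3 ± 0.978. Col1a1 and Col1a2 followed at 12.5 ± 2.9 and 9.56 ± 1.53 CPM per kilobase in WT, around Col6a2 at 11.9 ± 2.04. The order depends on the length used: with the longest transcript in place of all exons the first 4 kept their places, but Col1a2 moved from place 8 to 5, at 22.2 ± 3.55 CPM per kilobase in WT, and Col6a1 and Col1a1 from 5 and 6 to 7 and 8. In WT, the lowest by exon length were Col17a1, at 0.0547 ± 0.00551, and Col26a1, at 0.0386 ± 0.0136.

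The make-up of the family by class was taken from the same levels per length. Fibrillar collagens were 21.8%, 22% and 20.7% of the family's level per length in WT replicates 1, 3 and 4 and 22.3%, 23.3%, 21.7% and 24% in A178D replicates 1 to 4. The shares of basement membrane collagens were 53.3%, 52.7% and 53.4% in WT and 53.8%, 52.3%, 54.9% and 52.2% in A178D. Microfibrillar collagens made up 12.8 ± 0.26% in WT and 12.3 ± 0.291% in A178D, FACIT collagens 2.12 ± 0.146% and 1.82 ± 0.19%, and the other collagens 10.4 ± 0.293% and 9.71 ± 0.52%. Col1a1, Col1a2 and Col3a1 together made up 16.3%, 16.6% and 15% in WT and 17.1%, 17.7%, 16.9% and 18.8% in A178D, without overlap and lowest in WT replicate 4. These genes include Col3a1, the called gene, which had most of the difference. Its mean share was 7.62% in WT and 9.24% in A178D. The share of Col1a1 was 4.7% and 5.03%, and that of Col1a2 was lower in A178D, at 3.63% and 3.37%. The shares of the whole fibrillar class overlapped.

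Ratios between chains of one collagen, or of partner collagens, do not depend on library size and were compared by an exact two-sided permutation test over the 7 hearts, for which the smallest possible p is 0.0286. The counts of Col1a1 relative to Col1a2 were 0.746, 0.689 and 0.627 in WT and 0.799, 0.794, 0.756 and 0.8 in A178D, higher in all 4 A178D hearts (log2 difference 0.20; exact p = 0.0286, adjusted over 6 ratios 0.0857). Col3a1 relative to Col1a1 was 2.57, 2.38 and 2.31 in WT and 2.68, 2.77, 2.98 and 2.61 in A178D, again without overlap (log2 difference 0.19; exact p = 0.0286, adjusted 0.0857). These 2 ratios reached the smallest p the design allows and did not pass after adjustment. The other 4 ratios overlapped between the groups. Col4a2 to Col4a1 was 0.864 ± 0.0297 in WT and 0.842 ± 0.014 in A178D (exact p = 0.286, adjusted 0.429), and Col6a2 to Col6a1 was 1.38 ± 0.0185 and 1.4 ± 0.0892 (exact p = 0.771, adjusted 0.771). Col5a2 to Col5a1 was 0.633 ± 0.0105 in WT and 0.699 ± 0.0568 in A178D (exact p = 0.143, adjusted 0.286), and Col6a3 to Col6a1 was 0.692 ± 0.135 and 0.746 ± 0.0254 (exact p = 0.371, adjusted 0.446).

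Several collagens are neighbours in the genome. Among pairs under 1 Mb apart with both members kept, Col3a1 and Col5a2 lie 24614 bases apart on chromosome 1 on opposite strands, Col4a4 and Col4a3 lie head to head 71 bases apart on chromosome 1, Col4a6 and Col4a5 lie head to head 1308 bases apart on chromosome X, and Col6a2 and Col6a1 lie 85161 bases apart on chromosome 10, with Col18a1 326009 bases beyond Col6a1 and 428547 beyond Col6a2. Col9a3 and Col20a1 lie 364345 bases apart on chromosome 2. The log2 fold changes were 0.62 and 0.37 for Col3a1 and Col5a2, 0.15 and 0.41 for Col4a4 and Col4a3, -0.42 and -0.03 for Col4a6 and Col4a5, 0.32, 0.30 and 0.03 for Col6a2, Col6a1 and Col18a1, and -0.46 and -0.05 for Col9a3 and Col20a1. Exon bases shared with another annotated gene were found in 11 of the 36, between 14 and 563 bases a pair. The overlap is on the other strand in 8 and on the same strand in 3 (Col3a1, with 141 bases, Col20a1 and Col7a1). The sources used here do not state how such reads were counted or whether strand was used, so all 11 are uncertain to that extent.

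Col4a1 and Col4a2 are read from opposite strands, and their annotated first exons overlap. The 22 bases they share (chr8:11312805-11312826, GRCm38.p6, plus strand, the strand of Col4a2) are shown as the place of this overlap. Their part in the values of the pair was not tested.
Col4a1 and Col4a2 overlap: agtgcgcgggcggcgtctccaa

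RefSeq promoter windows (GRCm38.p6, 250 bases before to 50 after the start) were matched by symbol for 28 of the 36 genes, and 3 motifs were looked for on both strands. All genes with a window include genes not tested here, and GC content was not matched between them and the collagens. The windows of Col4a1 and Col4a2 overlap, so the bases they share count for both. The GC box GGGCGG was in 19 of the 28 genes (67.9%) and in 38.2% of all 27025 genes with a window. The CCAAT box, spelled CCAAT, was in 10 of 28 (35.7%) and 41.1% of all, and the TATA box TATAAA in 4 of 28 (14.3%) and 15.7% of all. The 250 bases before the start of Col3a1 are shown because it was the gene called higher; capitals mark TATAAA, the single match to these motifs there, 117 bases before the start, in a stretch with a GC content of 35.2% (chr1:45311288-45311537, plus strand).
Col3a1: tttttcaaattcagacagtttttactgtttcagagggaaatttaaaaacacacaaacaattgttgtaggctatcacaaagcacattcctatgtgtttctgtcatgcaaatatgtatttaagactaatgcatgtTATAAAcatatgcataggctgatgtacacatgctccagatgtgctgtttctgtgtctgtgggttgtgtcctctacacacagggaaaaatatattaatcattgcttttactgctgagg

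The other genes of the collagen pathway were taken from 8 lists with 85 genes, of which 78 were tested. None was called higher by edgeR, against 1.04% of all genes, and 2 (2.56%) were called lower, against 1.31%. At an unadjusted p under 0.05, 8 were higher (10.3%, against 7.93% of all genes) and 5 lower (6.41%, against 8.81%). DESeq2 called 3 higher, against 2.2% of all genes, and 2 (2.56%) lower, against 383 of all 13894 genes. The median log2 fold change was -0.03. Among 19 genes of chain folding and modification, 10 were above 0 and none was called. P4ha1, a catalytic subunit of the prolyl hydroxylase that stabilises the triple helix, had 54.7, 49.9 and 51.7 CPM in WT and 77, 59.3, 63 and 69.2 CPM in A178D. The groups did not overlap (log2 fold change 0.36, SE 0.09; edgeR adjusted p = 0.0516, DESeq2 0.00743). Serpinh1, the collagen chaperone, was at 0.14 (SE 0.08, edgeR adjusted p = 0.393), and at 0.08 without WT replicate 4.

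Of 4 tested genes of collagen secretion, Mia3, which loads procollagen into transport carriers, was at -0.07 (SE 0.07, edgeR adjusted p = 0.609) and Sec24d at 0.07 (SE 0.08, adjusted p = 0.73). Of 8 tested genes of propeptide processing, Adamts2, which removes the amino-terminal propeptides, was at 0.33 (SE 0.10, edgeR adjusted p = 0.11) and Pcolce, an enhancer of carboxy-terminal cleavage, at 0.26 (SE 0.10, adjusted p = 0.208). Both had A178D hearts above all WT hearts, and without WT replicate 4 Pcolce was at 0.16. Among 6 crosslinking genes, the lysyl oxidase family members Loxl1 and Loxl2 were at 0.44 (SE 0.11, edgeR adjusted p = 0.0611) and 0.28 (SE 0.10, adjusted p = 0.177), also without overlap. Loxl1 had 38.5, 36.5 and 27 CPM in WT and 47.4, 47, 41.2 and 49.1 CPM in A178D, with WT replicate 4 the lowest heart as for most collagens of high level.

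Among 12 fibril-associated proteins, Fn1, the fibronectin gene, was at -0.27 (SE 0.09, edgeR adjusted p = 0.134) and Sparc, a collagen-binding matricellular protein, at 0.20 (SE 0.09, adjusted p = 0.292). Sparc was at 0.10 without WT replicate 4 and at 0.30 without WT replicate 3. Basement membrane partners held the called pathway genes. Lama5, a laminin alpha chain, had 238, 295 and 287 CPM in WT and 163, 198, 170.4 and 161 CPM in A178D, and fell with a log2 fold change of -0.66 (SE 0.09, edgeR adjusted p = 0.00406), in all 7 fits that left out a heart too. Lamb3, a laminin beta chain, fell with -0.59 (SE 0.13, edgeR adjusted p = 0.0382) although its groups overlapped, and was called in 2 of those 7 fits. Of 14 tested genes in that list, 10 were below 0, with a median of -0.07, and -0.00 with length and GC offsets. Of 10 tested receptor genes, 8 were below 0; Itga1, a collagen-binding integrin, was at -0.31 (SE 0.10, edgeR adjusted p = 0.134) and Adgrg1 at -0.16 (SE 0.07, adjusted p = 0.263). Of 5 tested collagenases, Mmp14 was at 0.25 (SE 0.15, edgeR adjusted p = 0.433) and Ctsk at 0.09 (SE 0.14, adjusted p = 0.794).

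Collagens are made by several cell types, and in these bulk samples fewer cells of a type and less RNA per cell cannot be told apart. The 10 fibroblast markers, with Dcn the most abundant, summed to 1093, 1223 and 1186 CPM in WT and 1273, 1137, 1138 and 1136 CPM in A178D. None was called (5 above 0, median -0.02; Lum 0.19, edgeR adjusted p = 0.295, and Islr 0.17, adjusted p = 0.374), and WT replicate 4 was not low in this sum. The 10 markers of activated fibroblasts, with Ccn2 the most abundant, summed to 174, 188 and 127 CPM in WT and 146, 155, 146 and 167 CPM in A178D, so WT replicate 4 was the lowest heart here as in the collagens. None was called (7 above 0, median 0.19, and 0.11 without WT replicate 4); Comp was at 0.84 (SE 0.25, edgeR adjusted p = 0.104) and Ccn2 at -0.38 (SE 0.17, adjusted p = 0.287). The 10 endothelial markers, with Kdr the most abundant, summed to 1568, 1484 and 1383 CPM in WT and 1423, 1431, 1490.1 and 1485 CPM in A178D. WT replicate 4 was the lowest heart in this sum too, followed by A178D replicate 1. None of the 10 markers was called (5 above 0, median -0.02), with Tek at -0.13 (edgeR adjusted p = 0.378) and Esam at -0.17 (adjusted p = 0.38). No marker of these 3 lists was at 0 counts in all hearts.

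Smooth muscle and pericyte markers had the most calls among the 12 cell type lists. All 12 were below 0, with a median of -0.43, and 6 fell by edgeR: Acta2 (-0.59, adjusted p = 0.00587), Tagln (-0.62, adjusted p = 0.0077), Myh11 (-0.67, adjusted p = 0.0146), Mylk (-0.49, adjusted p = 0.0317), Cnn1 (-0.82, adjusted p = 0.0337) and Lmod1 (-0.70, adjusted p = 0.0427), all encoding parts of the smooth muscle contractile machinery. Acta2 and Tagln were called in all 7 fits that left out a heart, Myh11 in 5, Mylk in 2, and Cnn1 and Lmod1 in 1 each. Acta2 had 177, 213 and 183 CPM in WT and 108, 127, 134 and 137 CPM in A178D. The list, with Abcc9 the most abundant, summed to 1564, 1561 and 1499 CPM in WT and 1171, 1289.9, 1366 and 1097 CPM in A178D. Among 11 macrophage markers, Lyz2, the most abundant, was called higher (109 to 137 CPM in WT and 153 to 179 CPM in A178D; log2 fold change 0.40, edgeR adjusted p = 0.0339, called in 2 of the 7 fits that left out a heart), 9 were above 0, and the sums were 342, 443 and 404 CPM in WT and 476, 479, 429 and 482 CPM in A178D. The part of these cell types in the collagen values was not tested.

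The 9 ventricular myocyte markers, with Myh6 the most abundant, summed to 96270.2, 102375 and 101680.2 CPM in WT and 96985, 96757, 95113 and 104568 CPM in A178D. None was called (Actc1 0.13, edgeR adjusted p = 0.293; Myh6 -0.11, adjusted p = 0.378), and these levels fit the labelled tissue. Of 4 atrial markers, Bmp10 was at 0 counts in all hearts and only Myl4 was tested (0.65, edgeR adjusted p = 0.171), with sums of at most 4.21 CPM. The other lists were low as well, with sums of at most 5.31 CPM for epicardium, 20.8 CPM for Schwann cells, 5.37 CPM for cartilage-like valve cells, 4.38 CPM for skeletal muscle and 2.09 CPM for adipocytes. None of their tested genes was called. The genes with the smallest p were Wt1 in the epicardial list (-0.29, edgeR adjusted p = 0.398), Sox10 (0.60, adjusted p = 0.313) for Schwann cells, Cnmd (-0.71, adjusted p = 0.293) and Sox9 (-0.30, adjusted p = 0.561) for valve cells, Tnnt3 (0.98, adjusted p = 0.319) and Mylpf (-0.61, adjusted p = 0.487) for skeletal muscle, and Cfd (-0.53, adjusted p = 0.635) and Plin1 (0.43, adjusted p = 0.79) for adipocytes.

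**Figure D3:**
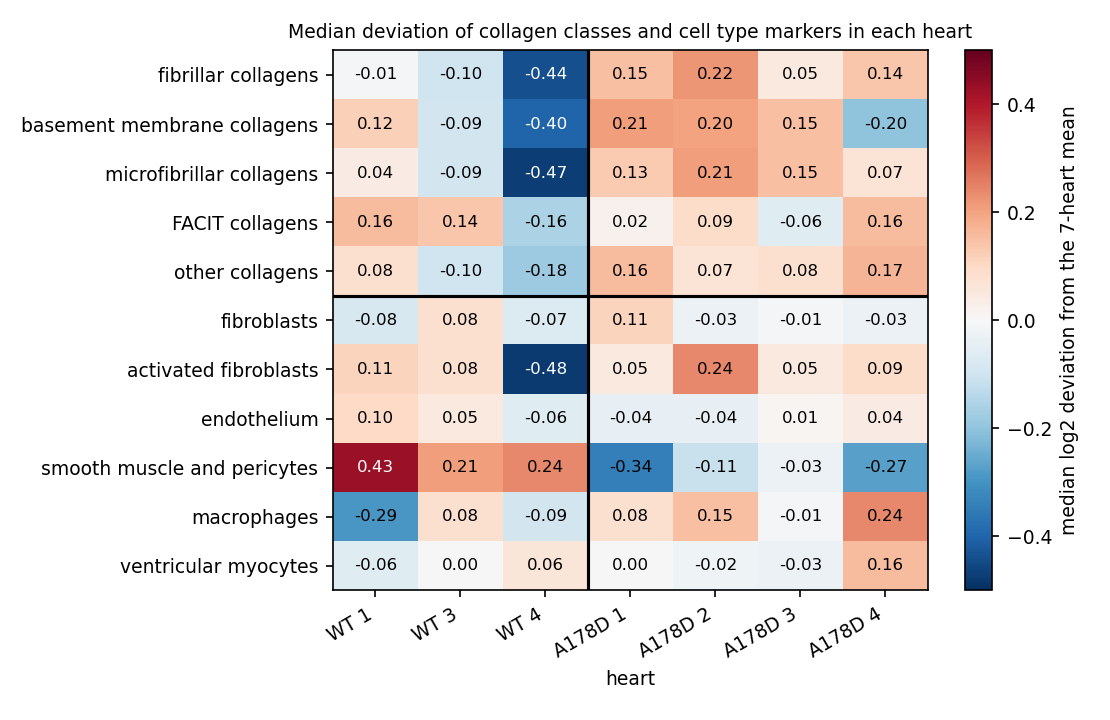
Median log2 deviation (colour and printed value) of the genes of each collagen class and each of 6 cell type marker lists in each heart (x axis) from the gene's mean over the 7 hearts. WT replicate 4 is at -0.44, -0.40 and -0.47 for fibrillar, basement membrane and microfibrillar collagens and at -0.48 for activated fibroblast markers, but at -0.07 for fibroblast and -0.06 for endothelial markers.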

How the data were processed

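Raw gene counts of 7 libraries of left ventricle RNA were deposited, made with a stranded poly(A) kit and read from both ends; their processing notes name bcl2fastq 2.18.0.12, HISAT2 2.1.0, SAMtools 1.6, DESeq2 1.26.0 and the build GRCm38, and the counting program and its annotation are not given in the sources used here. Few low counts were odd (17.6% to 20.3% of counts from 1 to 20), so most fragments appear to be counted once per end. A second deposited table, the counts divided by 1 size factor per library, was not used. Identifiers were matched to GENCODE M21 for names, positions, exon lengths and GC content; 223 entries with counts identical to another entry and 107 repeats of an identifier with the same counts, summing to under 30, were removed from 21257, leaving 20927.

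The main test was the quasi-likelihood test of edgeR 4.0.16 (R 4.3.3) on the 13894 genes that reached 10 counts in 3 or more libraries, WT against A178D with no covariate, TMM scaling, and Benjamini-Hochberg adjustment over all genes at 0.05. The common biological coefficient of variation was 0.111. Ratios used scipy 1.17.1. The alternatives were DESeq2 1.42.0, its size factors, limma-voom (limma 3.58.1), other filters and a replicate block. Others were length and GC offsets (mgcv 1.9.3), the table as deposited, halved counts and leaving out each heart. The main test, DESeq2, its size factors, limma-voom and the replicate block were run on simulated data with known changes and equal variation for every gene. The offsets, other filters, fits without a heart and ratio test were not run on simulated data. Members passing the rule are all named, with full statistics for those with an unadjusted p under 0.05 and the highest per length in each class; of other lists, the called genes or else the 2 with the smallest p; 1 gene that this rule names is not reported here. Members and lists were chosen with earlier results of these data known. Deviations in the heat map are of log2(CPM + 0.01). The labels name separate samples but not the animals behind them, so p-values measure the spread between these samples.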

Additional observations from a re-analysis of the deposited data

Results flagged for a closer look

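Of 48 sets of 4 A178D hearts looked at (36 genes, 6 ratios, the family and its 5 classes), 7 had 1 heart far from the other 3 by Dixon's ratio; chance gives about 1 in 20. The sets share genes (Col4a1 is part of the basement membrane sum), so that rate is only a rough guide. In A178D replicate 4, Col4a1 was at 612 CPM, against 666 to 668 in the others, and the summed basement membrane collagens at 1195 CPM, against 1309 to 1326. Col4a3 was at 5.25 CPM, against 8.87 to 9.07, and Col20a1 at 4.63 CPM, against 3.02 to 3.14. In A178D replicate 2, Col3a1 was at 324 CPM, against 303 to 306, and Col26a1 at 0.493 CPM, against 0.644 to 0.656. In A178D replicate 3, the ratio of Col1a1 to Col1a2 was 0.756, against 0.794 to 0.8.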

How the results depend on the processing

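Over 17 alternative settings, 24 of the 36 collagens kept the sign of their fold change wherever they were tested, among them the 18 with an unadjusted p under 0.05; of 609 values, 529 kept direction and side of the threshold, 41 gained a call, 4 lost one and 35 changed sign. The number of collagens called higher, 1 by the main test, was 7 by DESeq2's Wald test, 2 by limma-voom (148 of all genes), 5 with no filter on low counts (190 of all genes), 11 with length and GC offsets, and 0 to 9 when 1 heart was left out. None was called lower in any setting. All genes called, 145 higher and 182 lower, were 306 and 383 by DESeq2, 284 lower with length and GC offsets, and 22 to 215 higher and 31 to 238 lower with 1 heart left out. Pathway genes called higher, 0 by the main test, were 3 by DESeq2, 2 with no filter, 1 with at least 10 counts in every library, 3 with length and GC offsets, 1 with counts halved, and 0 to 2 with 1 heart left out, and those called lower, 2 by the main test, were 1 to 2. The cause was not tested. Fits without a heart rest on fewer samples.

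Deviations of log2 CPM from the group mean, over the genes tested, were correlated between WT and A178D samples. Same-numbered samples had correlations of 0.003, -0.04 and -0.042, and the others ran from -0.07 to 0.066. Such deviations sum to 0 within each small group, so these values cannot show whether the numbers pair the samples. With the replicate block, 2 collagens were called higher, 10 with length and GC offsets as well (200 of all genes); pathway genes called higher were 1 and 2, and those called lower 1 and 1. All genes called were 124 higher and 147 lower with the replicate block.

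With 1 heart left out, non-overlapping collagens numbered 10 to 16 higher and 2 to 3 lower; fewer hearts make this easier for every gene, and the shares of all genes rose too, to 9.53% to 12.9% higher and 10.1% to 13.7% lower. With 1 heart left out, the family median ran from 0.08 to 0.31, the FACIT median from -0.17 to 0.17, and the log2 difference of the Col6a2 to Col6a1 ratio from -0.02 to 0.05. The sign changed for 12 collagens whose log2 fold change was near 0 or poorly known. With length and GC offsets, Col4a5 was at 0.03 and Col22a1 at 0.03. By limma-voom, Col8a2 was at -0.02 and Col28a1 at 0.00349. With the replicate block, Col6a6 was at -0.06, Col9a2 at 0.02, Col8a2 at -0.20 and Col28a1 at 0.05. With the replicate block and these offsets, Col4a5 was at 0.02, Col9a2 at 0.01, Col20a1 at 0.04, Col22a1 at 0.04, Col7a1 at 0.03, Col8a2 at -0.18, Col25a1 at 0.06 and Col28a1 at 0.07. With 1 heart left out, the range was -0.01 to 0.30 for Col4a4, -0.06 to 0.03 for Col4a5, -0.05 to 0.13 for Col6a6, -0.15 to 0.17 for Col9a2, -0.21 to 0.02 for Col20a1, -0.38 to 0.25 for Col22a1, -0.23 to 0.36 for Col8a2, -0.06 to 0.11 for Col18a1, -0.00105 to 0.20 for Col23a1 and -0.19 to 0.24 for Col28a1. With the longest transcript in place of all exons, the level per length of Col3a1 moved from 26.8 to 47.2 CPM per kilobase, and Col4a1 from 78.1 to 88.1. A sex covariate was not run, since sex did not vary. Genes under about 1 CPM rest on few counts.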
